A study of Mus musculus with 12 samples.

Results

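Antigen receptor loci held 351 of the 84243 peaks of the master peak-list, an ATAC-seq peak list made from hematopoietic stem cells (HSCs) and 5 kinds of unipotent lineage cells of the mouse. ATAC-seq marks open chromatin by letting a transposase cut exposed DNA. A peak was a member when it overlapped by 1 bp or more a fixed span around Igh, Igk, Igl, Tcra/d, Tcrb or Tcrg on mm10, so no measured value chose the members. The spans took in every V, D, J and constant (C) gene segment of RefSeq at these loci and between 0.046 and 41.8 kb beyond the outermost ones.

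The cells came from wild-type C57BL/6 mice of 8 to 12 weeks, and each of the 6 cell types was represented by 2 of the 12 samples. HSCs were sorted as cKit+ Lin- Sca1+ Flk2- Slamf1+ cells, megakaryocyte progenitors (MkPs) as cKit+ Lin- Sca1- Slamf1- CD41+ cells, and erythroid progenitors (EPs) as lineage-negative CD71+ cells with or without Ter119. Granulocyte/macrophages (GMs) carried both Gr1 and Mac1, B cells were B220+ CD43-, and T cells were CD25- CD3+ with or without CD4 and CD8. The labels place the T cells in thymus and the other types in bone marrow. The deposited list was pooled over all of these samples and names no cell type for a peak, so nothing below compares cell types, and the B or T cells cannot be told apart from the other cells as the source of a peak. Intervals are 95% Wilson intervals and cover counting error only.

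Lymphocytes assemble antigen receptor genes by V(D)J recombination, in which the RAG recombinase joins a V segment, in some loci a D segment, and a J segment into 1 exon upstream of a constant gene. RAG cuts at recombination signal sequences, each a heptamer close to CACAGTG next to the coding segment, a spacer of 12 or 23 bases, and a nonamer close to ACAAAAACC. A signal lies after every V segment, on both sides of every D segment and before every J segment. Each V segment has its own promoter, and immunoglobulin V promoters carry the octamer ATGCAAAT, which Oct factors bind. Enhancers lie in the introns between J and constant segments and beyond the constant genes. Mature B and T cells have deleted or inverted DNA between the segments they joined, while the peaks are placed on the unrearranged assembly.

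The sequences that the results below turn on are shown 5′ to 3′ on the strand in which the locus is transcribed, from the RefSeq GRCm38 assembly, which is mm10. The first set holds the central 300 bases of 5 peaks at the constant ends, because enhancers of these loci are known to lie there. Capitals mark matches on either strand to the octamer, to an E-box (the letters CAGGTG or else the letters CAGCTG) or to the short consensus of a factor family. RUNX factors, which act in many blood lineages, were searched as AACCACA. The letters used for NF-kB were GGGACTTTC, and those used for YY1 were AAGATGGC. For CRE, the cyclic AMP response element, the letters were TGACGTCA, and for the T-cell factors TCF/LEF they were CTTTGAA. PU.1 was searched as GAGGAAGT, and the GATA family as AGATAA. The windows are chr12:113427373-113427672 on the minus strand, and chr6:70725657-70725956, chr14:54227474-54227773, chr6:41554430-41554729 and chr13:19219734-19220033 on the plus strand.
Igh J to C intron: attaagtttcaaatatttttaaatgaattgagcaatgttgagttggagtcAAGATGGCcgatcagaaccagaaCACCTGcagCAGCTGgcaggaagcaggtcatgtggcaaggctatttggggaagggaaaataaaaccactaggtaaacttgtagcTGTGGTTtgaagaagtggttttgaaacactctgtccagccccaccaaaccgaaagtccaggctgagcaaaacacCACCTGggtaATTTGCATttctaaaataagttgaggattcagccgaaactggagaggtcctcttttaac
Igk J to C intron: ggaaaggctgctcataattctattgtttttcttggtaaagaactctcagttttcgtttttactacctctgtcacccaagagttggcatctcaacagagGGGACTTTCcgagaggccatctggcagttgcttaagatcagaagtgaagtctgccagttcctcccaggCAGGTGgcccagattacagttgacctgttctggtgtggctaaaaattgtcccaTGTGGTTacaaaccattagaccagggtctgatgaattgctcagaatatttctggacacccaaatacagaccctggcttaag
Tcra/d beyond Trac: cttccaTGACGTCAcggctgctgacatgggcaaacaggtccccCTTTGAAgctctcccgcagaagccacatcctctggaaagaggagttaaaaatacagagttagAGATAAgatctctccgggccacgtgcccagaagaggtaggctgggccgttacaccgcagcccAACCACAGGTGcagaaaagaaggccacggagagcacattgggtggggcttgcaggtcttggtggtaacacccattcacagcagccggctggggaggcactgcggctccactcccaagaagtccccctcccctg
Tcrb between Trbc2 and Trbv31: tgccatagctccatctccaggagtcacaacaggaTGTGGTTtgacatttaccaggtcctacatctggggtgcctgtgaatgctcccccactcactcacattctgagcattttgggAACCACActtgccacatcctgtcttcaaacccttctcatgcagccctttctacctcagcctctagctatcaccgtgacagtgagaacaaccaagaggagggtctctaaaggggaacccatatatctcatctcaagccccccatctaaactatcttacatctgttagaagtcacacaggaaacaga
Tcrg beyond Trgc1: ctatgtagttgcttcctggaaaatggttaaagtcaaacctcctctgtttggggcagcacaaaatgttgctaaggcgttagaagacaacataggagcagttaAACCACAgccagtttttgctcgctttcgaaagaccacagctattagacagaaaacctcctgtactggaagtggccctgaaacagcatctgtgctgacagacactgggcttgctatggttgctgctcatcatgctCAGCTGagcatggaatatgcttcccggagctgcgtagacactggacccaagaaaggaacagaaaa

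The Igh window held 1 octamer, 3 E-boxes, 1 match to the RUNX letters and the only match to the YY1 letters among the peaks outside V parts. The Igk window held the NF-kB letters, 1 E-box with a GG core and 1 match to the RUNX letters. In the Tcra/d window the letters of CRE, TCF/LEF, GATA and RUNX were found together with CAGGTG, which shares its start with AACCACA in the run AACCACAGGTG. The Tcrb window had the RUNX letters on both strands, and the Tcrg window had them beside CAGCTG. They were in all 5 windows, against 16.1% of the 84243 peaks of the list counted over whole peaks, but these windows were chosen with their letters known. A match to a short consensus is a description of the letters and does not show binding.

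The second set shows recombination signals that lay inside peaks, with the heptamer and nonamer positions in capitals. The D segment Ighd4-1 (chr12:113430500-113430566, minus strand) is shown with the signals on both of its sides, and the J segments Igkj1 (chr6:70722523-70722581, plus strand), Iglj3 (chr16:19067059-19067106, minus strand) and Iglj2 (chr16:19200216-19200263, minus strand) with their first 20 bases.
Ighd4-1: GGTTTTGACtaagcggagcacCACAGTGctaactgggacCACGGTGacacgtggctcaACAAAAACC
Igkj1: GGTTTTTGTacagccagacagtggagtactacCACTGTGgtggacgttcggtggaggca
Iglj3: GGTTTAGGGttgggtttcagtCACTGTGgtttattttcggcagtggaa
Iglj2: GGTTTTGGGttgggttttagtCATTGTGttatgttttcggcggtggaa

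The third set shows V segments, each from its last 20 bases onwards. Ighv2-6-8 (chr12:113796028-113796157, minus strand) is shown for the CTCF consensus in capitals after its signal. Ighv1-49 (chr12:115055184-115055242, minus strand) is shown for AACCACA inside its spacer. Igkv4-80 (chr6:69016530-69016577, minus strand) is shown with the stretch before its 5′ end (chr6:69017108-69017227), where capitals mark an octamer and CAGCTG, because both of its ends had a peak.
Ighv2-6-8: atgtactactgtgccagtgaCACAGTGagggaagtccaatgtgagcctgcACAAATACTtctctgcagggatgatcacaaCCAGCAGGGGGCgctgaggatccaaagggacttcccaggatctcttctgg
Ighv1-49: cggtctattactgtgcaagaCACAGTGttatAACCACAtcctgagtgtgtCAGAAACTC
Igkv4-80: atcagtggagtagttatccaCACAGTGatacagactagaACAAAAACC
Igkv4-80 promoter side: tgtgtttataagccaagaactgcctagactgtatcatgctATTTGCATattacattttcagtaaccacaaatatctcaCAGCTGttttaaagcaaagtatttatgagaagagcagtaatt

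The 6 spans covered 8.86 Mb, or 0.334% of the assembled bases, and held 0.417% of the list. This is 39.6 peaks per Mb, against 31.8 per Mb over all assembled bases and a median of 28 (quartiles 8 and 53) over 1-Mb tiles of the autosomes. Tcrb had 56.7 peaks per Mb (38 peaks in 0.67 Mb), Igl 53.1 (13 in 0.245 Mb), Igh 46.7 (129 in 2.76 Mb), Igk 38.7 (123 in 3.18 Mb), Tcrg 26.3 (5 in 0.19 Mb) and Tcra/d 23.8 (43 in 1.81 Mb). V parts, where the centre lay in a V segment or between V segments, held 295 of the 351 peaks.

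**Figure D1:**
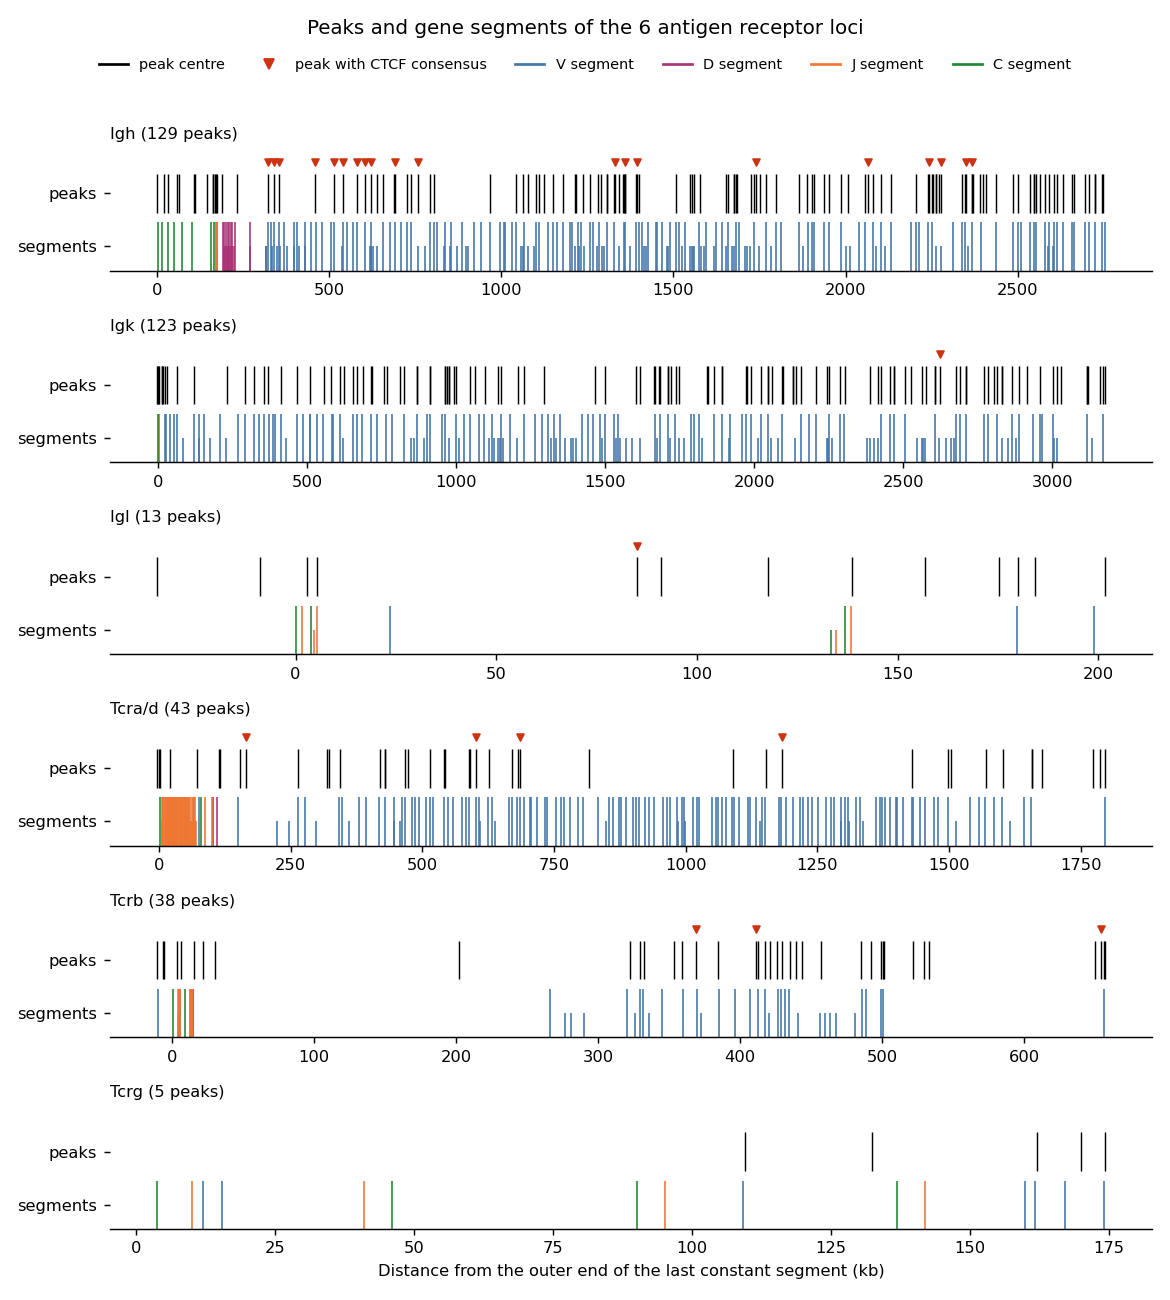
Peak centres (black, upper row) and RefSeq gene segments (coloured, lower row, pseudogenes drawn shorter) along each locus, in kb from the outer end of the last constant segment. Triangles mark peaks with a CTCF consensus, of which 20 of 29 lie in Igh, and the V parts carry most peaks of Igh, Igk, Tcra/d and Tcrb.

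HOMER, the authors' annotation tool, placed 346 of the 351 peaks (98.6%) in its intergenic class, against 37.6% of the whole list. A median of 188 kb separated them from the nearest transcription start site of its gene set, against 16 kb for the list. The other 5 were placed at the ends of Mir7094-1, Mir7094-2 and Olfr1509, at the promoter of 4930515G16Rik and in an intron of Prss58. None of the 351 was assigned to a V, D, J or C segment by HOMER, but by RefSeq segments, 216 peaks (61.5%) were centred within 500 bp of one. The peaks had a median GC content of 43.3%, against 48.9% for the list.

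A peak centre lay within 500 bp of 187 of the 526 V segments (35.6%, interval 31.6 to 39.7%). Among segments that RefSeq does not call pseudogenes, here termed functional, 165 of 373 (44.2%, 39.3 to 49.3%) had such a peak, and among pseudogenes 22 of 153 (14.4%, 9.69 to 20.8%). The functional share was 58.3% in Igh, 56.9% in Igk, 68.2% in Tcrb and 15.1% in Tcra/d, where the interval (9.79 to 22.6%) lay below the other 3. The pseudogene share was 17.5% in Igh, 16.7% in Igk and 7.69% in Tcrb, and 0 of 17 Tcra/d pseudogenes had a peak, which allows a share of up to 18.4% (the upper end of the interval).

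**Figure D2:**
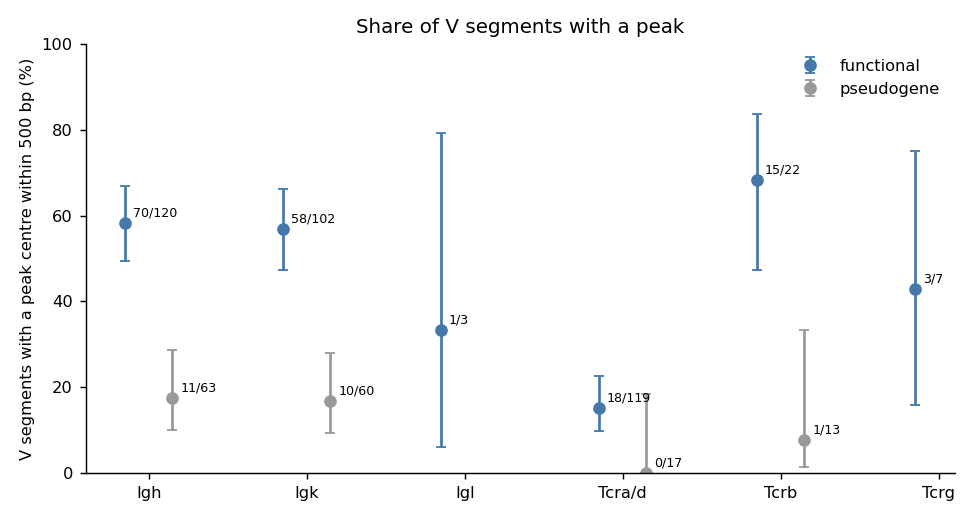
Percent of V segments with a peak centre within 500 bp, for functional segments (blue) and pseudogenes (grey) of each locus, with the counts beside each point and 95% Wilson intervals as bars. Functional Tcra/d segments stood at 15.1%, below the 56.9 to 68.2% of Igh, Igk and Tcrb.

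The authors left out reads that align to several places, so the share of 100-base words around each V segment that occur once in the assembly was measured beside these counts. Of the 118 Tcra/d V segments without a peak, 58 (49.2%) had under 50% unique words, and of the 18 with a peak 0 did. Many Trav segments are near-identical duplicated copies. Among the 78 Tcra/d V segments with at least 50% unique words, 18 had a peak (23.1%, 15.1 to 33.6%), while 0 of the 58 others did. In Igh only 2, and in Igk and Tcrb 0, V segments had under 50% unique words. The part of uniqueness in the low Tcra/d share was not tested beyond these values.

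The position of the nearest peak centre along each V segment was counted from the ends that RefSeq gives. Most Igh V segments are annotated without their leader exon (median length 294 bp, against 526 bp in Igk), so the 5′ end is a different point of the gene in Igh than in Igk, and only the 3′ end can be set side by side between these loci. In Igh, 0 of 81 V segments with a peak had its centre before the 5′ end, 35 had it inside and 46 beyond the 3′ end, and for 75 it lay within 100 bp of the 3′ end (median 9 bp beyond, quartiles -24 and 52). In Igk, 30 had the centre before the 5′ end, 1 inside and 37 beyond the 3′ end. The medians of the outer groups were -92.5 bp from the 5′ end and 63 bp from the 3′ end. In Tcra/d, 15 of 18 had the centre before the 5′ end, with a median of -126 bp, 3 inside and 0 beyond. Tcrb was mixed, with 6 before, 4 inside and 6 beyond. All 3 V segments with a peak in Tcrg, and the only one in Igl, had it before the 5′ end. Some V segments had more than 1 peak. Counted by peak, 38 Igk V-part peaks within 500 bp of a V segment lay before its 5′ end, 1 inside and 42 beyond.

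Peaks of the list never overlap and their centres were at least 500 bp apart, so a promoter peak and a signal peak of 1 segment could both be kept only where their centres are that far apart. In the 250 bp before the annotated 5′ end, an octamer was found for 106 of 183 Igh V segments and 94 of 162 Igk V segments. Its median distance from that end was 235 bp in Igh, close to the limit of the window, and 93 bp in Igk, so Igh octamers lying farther out were not counted. From the middle of the octamer to the 3′ end the median was 537 bp in Igh, where 9 of 106 were under 500 bp. In Igk it was 632 bp, with 0 of 94 under 500 bp. The part of this spacing in the peak positions was not tested. Peaks centred within 500 bp numbered 2 for 14 Igk V segments, among them Igkv10-95, Igkv10-96, Igkv12-46 and Igkv4-80, and for 1 Igh, 1 Tcra/d and 1 Tcrb V segment.

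The recombination signal position after the segment lay in a peak for 81 of 183 Igh V segments (44.3%, 37.3 to 51.5%) and 42 of 162 Igk V segments (25.9%, 19.8 to 33.2%). It did so for 9 of 35 Tcrb V segments (25.7%, 14.2 to 42.1%) and 2 of 136 in Tcra/d (1.47%, 0.404 to 5.2%). For D and J segments these counts were low: 2 of 48 D positions, both of Ighd4-1, and 4 of 94 J positions, of Igkj1, Iglj2, Iglj3 and Traj15. The first bases after the segment were CAC, as in a heptamer, at 512 of all 668 positions (76.6%). For V segments this was lowest in Igh among the 4 larger loci, at 117 of 183 (63.9%). It was 120 of 162 in Igk (74.1%), 116 of 136 in Tcra/d (85.3%) and 32 of 35 in Tcrb (91.4%). Among functional V segments with and without a peak, the exact heptamer was found at 41 of 53 (77.4%, 64.5 to 86.5%) against 25 of 41 (61.0%, 45.7 to 74.3%) in Igh and 42 of 50 (84.0%, 71.5 to 91.7%) against 37 of 39 (94.9%, 83.1 to 98.6%) in Igk, counted where CAC was found, and in each locus the intervals overlapped.

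The letters in the peaks followed these positions. CACAGTG was in 79 of 129 Igh peaks (61.2%, 52.6 to 69.2%) and 52 of 123 Igk peaks (42.3%, 33.9 to 51.1%), against 15.2% of the list. ACAAAAACC was in 12 Igk peaks (9.76%, 5.67 to 16.3%) and 2 Igh peaks (1.55%, 0.426 to 5.48%), against 1.06%. The octamer was in 51 Igk peaks (41.5%, 33.1 to 50.3%) but in 6 Igh peaks (4.65%, 2.15 to 9.78%), against 3.37%. Within Igk it was in 31 of the 38 V-part peaks that lay before a 5′ end (81.6%, 66.6 to 90.8%) and in 10 of the 43 inside or beyond a V segment (23.3%, 13.2 to 37.7%). CACAGTG had the opposite distribution, with 11 of 38 (28.9%, 17.0 to 44.8%) and 34 of 43 (79.1%, 64.8 to 88.6%). The heptamer and nonamer letters are part of the signals themselves, and the octamer is part of V promoters. These shares therefore describe where the peaks lie, and not whether Igh or Igk V segments have an octamer.

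Other letters also differed by locus. CAGCTG and CAGGTG are E-boxes, which E2A and related factors bind. CAGCTG was in 66 Igk peaks (53.7%, 44.9 to 62.2%) and 27 Igh peaks (20.9%, 14.8 to 28.7%), against 29.8% of the list. Of Igk V-part peaks within 500 bp of a V segment, it was in 30 of 38 before a 5′ end (78.9%, 63.7 to 88.9%). Of those inside or beyond a V segment it was in 21 of 43 (48.8%, 34.6 to 63.2%). V segments of 1 family are related copies, so their peaks are not independent, which the intervals for these letters and the octamer do not cover. CAGGTG was near the list's 32.6% in Igh (29.5%, 22.3 to 37.8%) and Igk (30.9%, 23.4 to 39.5%), and stood in 9 of the 13 Igl peaks (69.2%, 42.4 to 87.3%). CCCNNGGGA, the letters of the B-cell factor EBF with N for any base, was in 18 Igk peaks (14.6%, 9.46 to 21.9%) and 2 Igh peaks (1.55%, 0.426 to 5.48%), against 9.84%, and 10 of the 18 lay before the 5′ end of a V segment. CTTTGAA (TCF/LEF) was in 49 of the 351 peaks, with an interval of 10.7 to 18.0%, against 10.5%. The GATA letters were in 31.3% of the 351 peaks, against 24.1%, but in the central 200 bp in 10.8%, against 11.3%. The other shares over all 351 peaks were 8.55% for PU.1 (9.39%), 28.8% for the Ikaros letters TGGGAA (37.1%), 2.28% for YY1 (3.4%), 0.855% for NF-kB (0.639%) and 0.285% for CRE (1.16%).

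**Figure D3:**
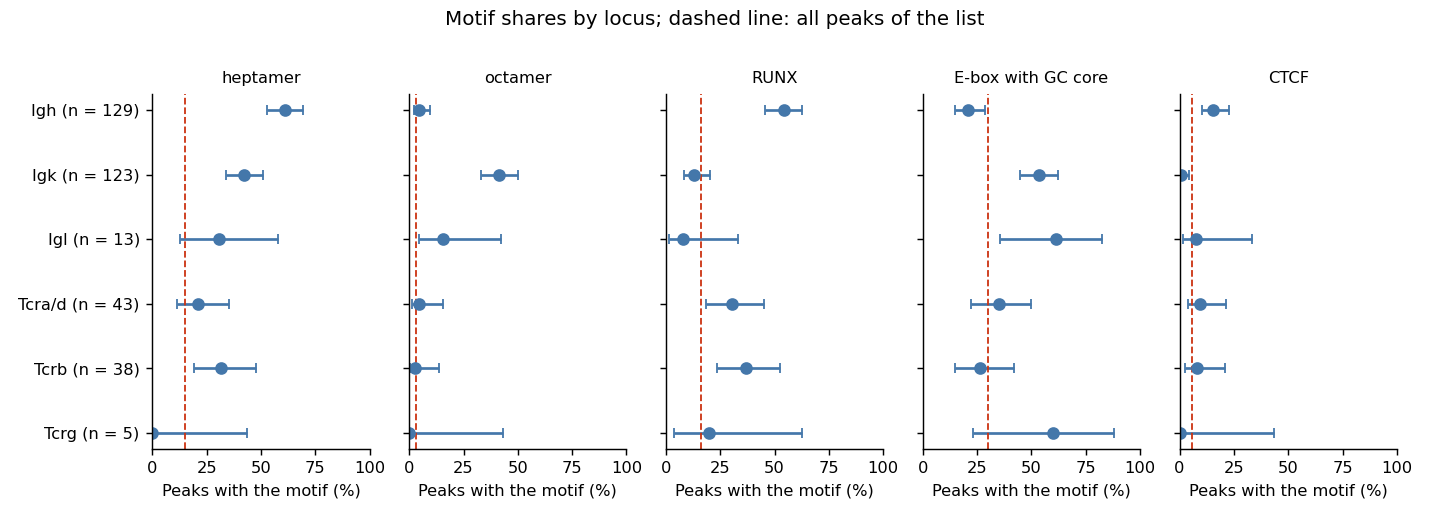
Percent of the peaks of each locus that hold each motif (points) with 95% Wilson intervals (bars), and the percent over all 84243 peaks (dashed line). Igh stands at 61.2% for the heptamer and 54.3% for RUNX, and Igk at 41.5% for the octamer.

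At Igh, the heavy chain locus, 114 of 129 peaks lay in the V part, 3 in the D/J part, 2 in the J to C intron and 10 in the constant part. When the V part was cut into 3 equal stretches of 0.812 Mb, the one nearest the D segments had 30.8 peaks per Mb, the middle one 51.7 and the distal one 57.9. In the same order they held 67, 71 and 45 V segments, of which 22, 28 and 31 had a peak. The centre fell on the last base of Ighv1-49, Ighv1-73 and Ighv1-77, 1 bp beyond Ighv1-61 and 2 bp before the end of Ighv8-14. At the ends of the V part, the pseudogene Ighv5-1 next to the D segments had its nearest peak 5202 bp away, and Ighv1-86 at the far end 996 bp away. The large Ighv1 family had a peak at 51 of 92 segments (55.4%), Ighv2 at 5 of 11, Ighv8 at 6 of 16, Ighv5 at 4 of 21, and Ighv3 and Ighv10 at 0 of 8 and 0 of 4. These counts include pseudogenes. Among functional segments they were 44 of 60 for Ighv1, 5 of 9 for Ighv2, 4 of 10 for Ighv5, 0 of 6 for Ighv3 and 0 of 2 for Ighv10.

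The CTCF consensus, the site of the factor that anchors chromatin loops, was in 20 Igh peaks (15.5%, 10.3 to 22.7%), against 5.52% of the list. All 20 were in the V part and all 20 sites lay on the minus strand, the strand in which Igh is transcribed. In the proximal stretch 11 of 25 peaks held one, in the middle stretch 4 of 42 and in the distal stretch 5 of 47. The 11 proximal sites belonged to peaks centred 23 to 91 bp beyond the 3′ end of Ighv2, Ighv4 and Ighv5 segments, as in Ighv2-6-8 above. Segments of 1 family are related copies, so these 11 sites are not independent occurrences, which the interval does not cover. The peaks of the other 9 were centred 476 to 8249 bp from the nearest V segment, in each case an Ighv1 segment. Counted from the segments, a site stood in the 100 bp after 11 of 81 V segments with a peak and 8 of 102 without, but among functional V segments it stood after 10 of 70 with a peak and 8 of 50 without, so the direction turned. The 8 were Ighv2-2, Ighv2-5, Ighv3-3, Ighv5-6, Ighv5-9, Ighv5-9-1, Ighv5-12 and Ighv5-15, each with at least 88.2% unique words around it and 8683 bp or more from a peak.

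AACCACA was in 70 Igh peaks (54.3%, 45.7 to 62.6%), against 16.1% of the list. Of 65 such peaks in the V part, 42 had the letters inside the 39 bases of a recombination signal position. In Ighv1-49 they lay in the spacer, which was not counted for the others. The Ighv1 segments are related copies, so these are not independent occurrences. Among functional Ighv1 segments the letters were in the signal position of 34 of 44 with a peak and 3 of 16 without. Among all Ighv1 segments, pseudogenes included, they were in that of 39 of 51 and 14 of 41. Among functional segments of the other families, apart from Ighv2, Ighv4 and Ighv5 where there were 0, they were in 3 of 16 and 4 of 24.

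Around the Igh D, J and constant segments, a peak at chr12:113430214-113430712 was centred 65 bp beyond Ighd4-1, the D segment closest to the J segments, and took in both signals of that D segment. No other signal position of the 40 beside D segments or the 4 before J segments lay in a peak. The remaining D-part peaks were at chr12:113446045-113446543, 1920 bp beyond Ighd3-2, and chr12:113487630-113488128, 5687 bp before Ighd1-1 and at -1686 bp from the start of Adam6b, a gene expressed in testis that lies among these segments. In the J to C intron, which is known to hold the intronic enhancer Eμ, the peak at chr12:113427273-113427771 was centred 992 bp beyond Ighj4. It is the first sequence printed above. The second intron peak, chr12:113425235-113425733, lay 2754 bp before Ighm and held none of the motifs searched.

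Peaks at the Igh constant genes lay inside Ighm (chr12:113418815-113419313 and chr12:113419797-113420295), inside Igha (chr12:113257178-113257676) and 238 bp beyond Ighg2c (chr12:113286902-113287400). Ighm encodes the constant region of IgM and Igha that of IgA. Upstream of constant genes that B cells can switch to, peaks were centred 1341 and 5357 bp before Ighg3, 6887 bp before Ighg2b and 4719 bp before Ighe. The last pair of constant peaks lay 5257 bp beyond Ighg1 and 4499 bp beyond Ighd. The peak nearer the 3′ end of Ighm held the octamer and 2 CAGGTG, and the one 1341 bp before Ighg3 held GGGACTTTC. Outside the span, 9 peaks lay in the 50 kb beyond its Igha end, the side where the 3′ regulatory region is known to lie.

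At Igk, the kappa light chain locus, 114 of 123 peaks lay in the V part, and its 3 equal stretches of 1.05 Mb had 36.2 (nearest the J segments), 31.4 and 41.0 (distal) peaks per Mb. They held 54, 61 and 47 V segments in that order, of which 23, 17 and 28 had a peak. Both outermost V segments had a peak before the 5′ end, centred 113 bp before the V segment at the far end and 89 bp before Igkv3-1 next to the J segments. The centres nearest a 3′ end were 1 bp beyond Igkv4-92, 16 bp beyond Igkv12-89, 18 bp beyond Igkv14-126 and Igkv4-57 and 19 bp beyond Igkv5-39. By family, 3 of 3 Igkv10, 9 of 13 Igkv1, 6 of 9 Igkv6 and 12 of 33 Igkv4 segments had a peak, and 0 of 19 Igkv13 segments, of which 2 are functional. Farther out, another peak lay at chr6:67549507-67550005. The only Igk peak with a CTCF consensus was centred 2726 bp before Igkv11-118.

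Between Igkv3-1 and the J segments there were 4 peaks, at chr6:70709267-70709765, chr6:70713053-70713551, chr6:70714199-70714697 and chr6:70722254-70722752. The last was centred 59 bp before Igkj1 and covered its recombination signal, while the signals of the other 4 J segments had no peak. One peak, chr6:70725557-70726055, lay in the J to C intron 629 bp before Igkc, where the kappa intronic enhancer is known to lie, and held GGGACTTTC, the letters through which NF-kB was first described at this enhancer. Beyond Igkc, which encodes the kappa constant region, peaks were centred at 755 bp (chr6:70727260-70727758) and 2584 bp (chr6:70729089-70729587). A further 7 peaks lay in the next 50 kb, outside the span.

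**Figure D4:**
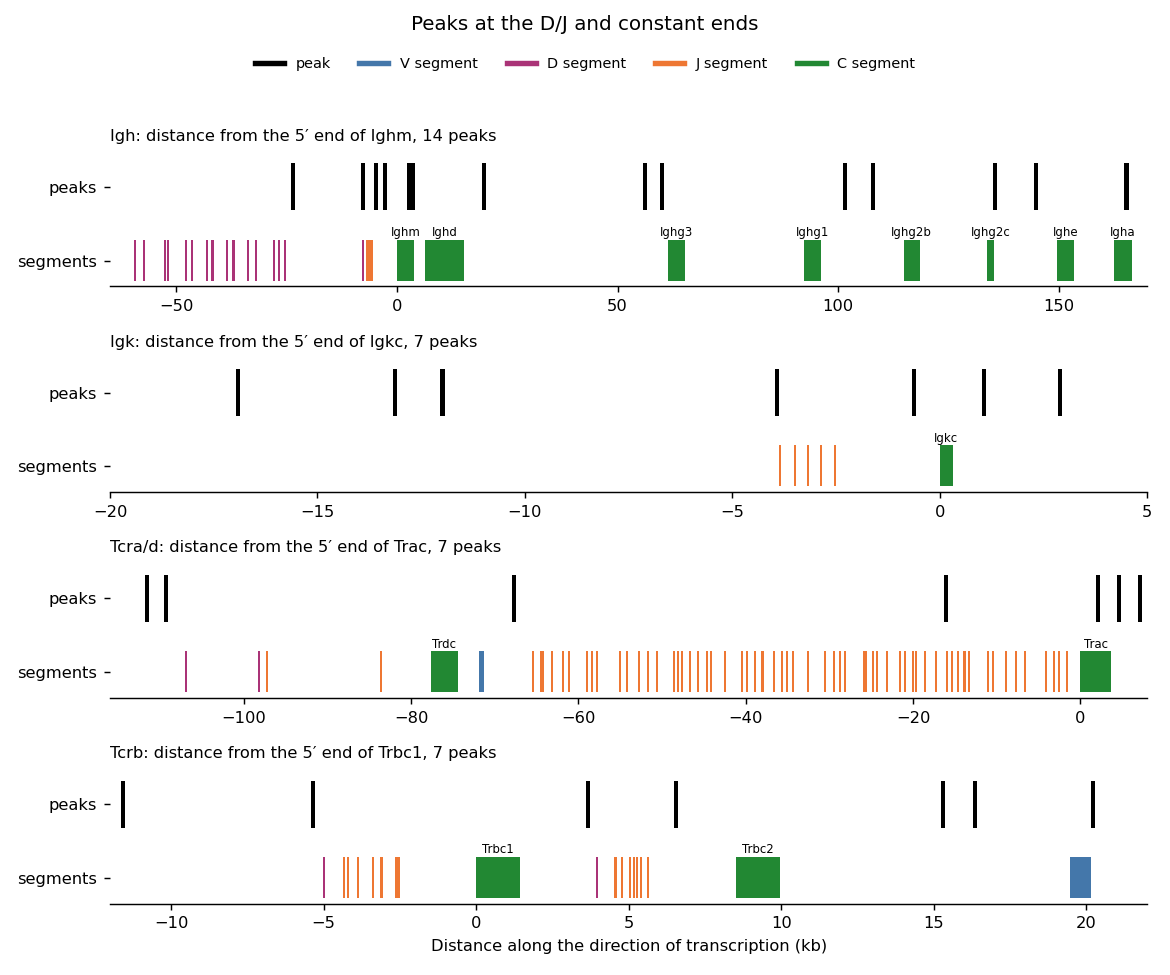
Peaks (black) and gene segments (coloured) at the D/J and constant ends of 4 loci, in kb along the direction of transcription from the 5′ end of Ighm, Igkc, Trac or Trbc1. A peak stands in the J to C intron of Igh and Igk, before the first D segment of each Tcrb cassette, and beyond Trac.

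Igl, the lambda light chain locus, is built of 2 cassettes of J and constant segments and has 3 V segments here, and 13 peaks. Peaks covered the signals of Iglj3 (chr16:19066901-19067399, centred 72 bp before it) and Iglj2 (chr16:19200096-19200594, 110 bp before it), each the first J segment of its cassette, and the other 3 J segments, Iglj1 and a pair of pseudogenes, had none. Of the V segments, Iglv3 had a peak 171 bp before its 5′ end (chr16:19241601-19242099), Iglv2 had its nearest peak 2595 bp away and Iglv1 17867 bp away. A peak at chr16:19064380-19064878 lay 736 bp beyond Iglc3. Beyond Iglc1 at the constant end, peaks lay at 8738 and 34421 bp (chr16:19052765-19053263 and chr16:19027082-19027580). Between Iglv1 and Iglc4, 3 peaks lay 15513 to 48219 bp beyond Iglc4, of which chr16:19146531-19147029 held the only CTCF consensus of the locus. The remaining peaks lay 18316 bp before Iglj2 (chr16:19218302-19218800), 4285 bp beyond Iglv3 (chr16:19236674-19237172) and 4377 bp before it (chr16:19245807-19246305).

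At Tcra/d, where the delta segments lie inside the alpha locus, 35 of 43 peaks were in the V part. Its 3 stretches of 0.549 Mb had 38.2 (nearest the D and J segments), 7.28 and 18.2 (distal) peaks per Mb, with 41, 57 and 37 V segments. V segments with few unique words were not spread evenly over them. In the nearest stretch Trav13-3 (10.5%) alone had under 50% unique words. Segments with 0% unique words all lay in the other stretches, such as Trav7n-5 in the middle and Trav6d-6 in the distal one. Segments under 50% were not counted by stretch, and the part of uniqueness in these densities was not tested. The promoter-side peaks included those 34 bp before Trdv2-2 and 75 bp before Trdv1, both delta V segments, 151 bp before Trav1 at the far end, and 153 and 183 bp before Trav12-1 and Trav12-3. The 3 peaks centred inside a V segment were at Trav6d-3, Trav13-2 and Trav13-4-dv7. At the J end the inverted delta segment Trdv5 had its nearest peak 3579 bp away. All 4 CTCF sites were on the plus strand, the strand of transcription, and 3 of them were in peaks centred 153 to 227 bp before Trav8d-2, Trav12-1 and Trav12-3. RUNX letters were in 13 Tcra/d peaks (30.2%, 18.6 to 45.1%). One V-part peak, chr14:52547876-52548374, overlapped the H element, an olfactory receptor enhancer that RefSeq annotates between Trav1 and Trav2.

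Nearer the constant segments of Tcra/d, peaks lay 4551 and 2239 bp before Trdd1 (chr14:54108668-54109166 and chr14:54110980-54111478) and 2225 bp before Traj61, the first alpha J segment (chr14:54152531-54153029). Of 62 J segments, Traj15 alone had a peak on it (chr14:54204221-54204719). One peak lay inside Trac, the alpha constant gene (chr14:54222340-54222838), and 2 beyond it, at 944 bp (chr14:54224893-54225391) and 3425 bp (chr14:54227374-54227872). The last is the Tcra/d sequence printed above, on the side where the alpha enhancer is known to lie, and the only member with TGACGTCA. The nearest gene start in that direction, of Dad1, was 26306 bp away. No peak had Trdc, the delta constant gene, as its nearest segment.

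At Tcrb, 28 of 38 peaks were in the V part, which was cut into 3 stretches of 0.13 Mb. The middle one had 123 peaks per Mb (16 peaks, 18 V segments). The distal one had 38.4 (5 peaks, 1 V segment) and the proximal one 53.8 (7 peaks, 15 V segments). Trbv31 lies outside these stretches. Of 35 V segments, 16 had a peak, and 15 of these were functional. Centres lay at the last base of Trbv13-3, 12 bp beyond Trbv24, 37 bp beyond Trbv13-2 and 61 bp beyond Trbv1, and before the 5′ end by 16 bp at Trbv23 and 73 bp at Trbv31, which lies inverted beyond the constant genes. Trbv1 also had a peak 107 bp before its 5′ end. The 3 CTCF sites lay on the plus strand, near Trbv1, Trbv14 and Trbv19. Between Trbv30 and Trbd1, where the trypsinogen genes lie, there were 4 peaks, centred 63802 bp beyond Trbv30 and 15004, 6555 and 324 bp before Trbd1.

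The Tcrb D, J and constant part is a tandem pair of cassettes, and each D segment had a peak before it. The peak at chr6:41532628-41533126 was centred 324 bp before Trbd1 and that at chr6:41541636-41542134 was centred 278 bp before Trbd2. None of the 14 J signals lay in a peak. A peak in the second J to C intron, chr6:41544521-41545019, lay 914 bp beyond Trbj2-7 and held AACCACA and CAGGTG. Between Trbc2 and Trbv31, where the beta enhancer is known to lie, there were 2 peaks, chr6:41553283-41553781 and chr6:41554330-41554828. The second is printed above and held 2 AACCACA. RUNX letters were in 14 of the 38 Tcrb peaks (36.8%, 23.4 to 52.7%).

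At Tcrg, the gamma locus with 7 V, 4 J and 4 constant segments, there were 5 peaks. They lay 22 bp before Trgv7 (chr13:19177771-19178269), 84 bp before Trgv6 (chr13:19190035-19190533) and 60 bp before Trgv3 (chr13:19242536-19243034), each on the promoter side. Another lay 2554 bp before Trgv4 (chr13:19182178-19182676) and the last 3265 bp beyond Trgc1 (chr13:19219634-19220132), whose sequence is printed above. None of the 11 recombination signal positions lay in a peak, which allows a share of up to 25.9% (the upper end of the interval). The cassettes of the other 3 constant genes had no peak besides the one at Trgv3.

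Of the 295 V-part peaks, 198 (67.1%) were centred within 500 bp of a V segment, and of the other 97, 20 were over 10 kb from one. The latter 97 had CACAGTG in 20.6% (13.8 to 29.7%) and the octamer in 13.4% (8.0 to 21.6%), against 61.6% (54.7 to 68.1%) and 22.2% (17.0 to 28.5%) of the 198. The CTCF consensus was in 12 of the 97 (12.4%, 7.22 to 20.4%) and 16 of the 198 (8.08%, 5.04 to 12.7%).

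Outside the V parts lay 56 peaks. CACAGTG was in 14 of them (25.0%, 15.5 to 37.7%), against 142 of the 295 V-part peaks (48.1%, 42.5 to 53.8%), while ACAAAAACC was in 3 (5.36%, 1.84 to 14.6%) and 15 (5.08%, 3.11 to 8.22%). CAGGTG was in 26 (46.4%, 34.0 to 59.3%), against 91 (30.8%, 25.9 to 36.3%) in V parts, and AACCACA in 17 (30.4%, 19.9 to 43.3%), against 98 (33.2%, 28.1 to 38.8%). The CTCF consensus was in 1 of the 56 and 28 of the 295. Intervals of the 2 parts overlapped for CAGGTG and AACCACA and did not for CACAGTG.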

How the data were processed

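The authors ran the ENCODE pipeline for ATAC-seq on the reads of the 12 samples, against mm10 and without multimapping reads, concatenated the optimal peak-lists of the 6 cell types, kept non-overlapping peaks with chromVAR and annotated them with HOMER (version 4.10.2 in the submitters' processing notes). The deposited positions, and the distances to a transcription start site, are in bp without normalization. The deposited score was 0 in every peak and was not used. The list has 0 columns of values per sample, so depth is unknown, no test over samples could be run, and all results are counts with 95% Wilson intervals.

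Peaks overlapping the 6 spans by 1 bp or more were assigned to parts by the gene segments that flank their centre, with segments, genome and sequences from RefSeq for GRCm38.p6. Motifs were searched as exact letters on both strands of the whole 499-bp peak. Signal positions were the 39 bases after a V segment and the 28 or 39 bases beside a D or J segment. Uniqueness was counted as 100-base words over the segment and 250 bp on either side. The motif search was tested on simulated sequences, where 3000 of 3000 planted sites were found. Segments were named for being nearest their peak centre or at the ends of V parts, and peaks of D/J, J to C and constant parts for their position. Members and lists were chosen with earlier results of these data known, although the rule for members used only fixed spans and no measured value. Python 3.11.15, numpy 2.4.6, pandas 2.3.3, numba 0.67.0 and matplotlib 3.10.9 were used.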

Additional observations from a re-analysis of the deposited data

How the results depend on the processing

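Of 116 values recomputed with other choices, 91 stayed within 1.5 times the count, or within the interval of the share, and 25 did not. A change of direction was not scored in this count. Counting peaks by their centre or only when whole inside a span, and peaks per Mb between the outermost segments, changed no count or density by more than that. Leaving out pseudogene segments raised the V share with a peak to 58.3% in Igh, 56.9% in Igk, 68.2% in Tcrb and 44.2% over all loci, and put 1 Igh peak in the V to D gap. Assigning parts by the nearest segment alone gave 2 D/J and 3 constant peaks in Igk, 4 V, 3 D/J and 6 constant peaks in Igl, 4 D/J and 3 constant peaks in Tcra/d, 5 D/J peaks in Tcrb, and 4 V and 1 constant peaks in Tcrg, since peaks in gaps then had to join a segment type. With 1 mismatch the CTCF consensus was in 19.4% of the peaks, against 18.8% of the list, and in 28.7% of Igh peaks (21.6 to 37.0%), so the difference over all 6 loci rests on exact matches. In the central 200 bp the shares fell to 33.3% for CACAGTG, 26.2% for AACCACA, 27.4% for CAGCTG and 19.9% for CAGGTG, and to 7.43%, 9.89%, 16.7% and 15.3% in the list. There the GATA letters were in 10.8% (11.3% of the list), TCF/LEF in 4.84% (4.06%), Ikaros in 10.5% (15.1%), YY1 in 0.57% (1.57%), PU.1 in 7.69% (7.09%), EBF in 5.7% (4.61%, from 7.98% and 9.84% over whole peaks) and CRE in 0 peaks (0.785%), so GATA, PU.1 and EBF changed sides of the list. No paired analysis was possible because the list carries no values per sample. Depth, cell type of origin and replicate spread are not in these values, rearranged cells are mapped to the unrearranged assembly, and near-identical V segments can lose reads.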
